A study of Homo sapiens with 6 samples.

Results

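The nuclear-encoded subunits of the mitochondrial respiratory chain and ATP synthase were followed in HT-29, an established line of human colorectal cancer cells. Members were the protein-coding genes whose symbols begin with NDUFA, NDUFB, NDUFC, NDUFS or NDUFV and a number, the 4 SDH genes, the UQCR genes, CYC1, the COX4 to COX8 genes with a letter A to C after the number, and the ATP5 genes. This rule used names alone and found 86 of 27434 rows, with 36 in complex I, 4 in complex II, 10 in complex III, 17 in complex IV and 19 in complex V. NDUFA4 and NDUFA4L2 were counted with complex IV, where their products belong. COX4I1 and NDUFAB1 encode subunits that the name patterns leave out, and their values are given with the other lists. Of the 86 rows, 4 join a member with other genes, so that the values of ATP5F1E, ATP5MF, ATP5MK and NDUFC2 are uncertain.

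The cells had been transfected for 48 hours, at 10 nM according to the labels, although the study's methods give another concentration, with a non-targeting siRNA pool (siNT), a pool against HOXA-AS3 (siHOXA-AS3) or a pool against HOXB-AS3 (siHOXB-AS3). Both targets are long noncoding RNAs antisense to HOX genes. No other agent or allele distinguished the groups, and all 6 libraries, 2 per condition, came from this single line. The labels do not say whether replicates were separate cultures, so p-values measure only the spread between these libraries. Each knockdown (KD) was compared with the same 2 siNT libraries, which makes the comparisons dependent.

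Complexes I to IV pass electrons from NADH and succinate to oxygen and pump protons across the inner mitochondrial membrane, except complex II, which does not pump. Complex V, the ATP synthase, lets the protons flow back and makes ATP. Most subunits are encoded in the nucleus and imported, while a few core subunits come from mitochondrial DNA and were not examined here. Cultured cancer cells such as HT-29 use this pathway beside glycolysis.

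The total expected count per library ranged from 15998518 to 26263938, and members took 1.64% to 1.78% of it. HOXB-AS3 counts were 303 and 213 in siNT, 263 and 208 in siHOXA-AS3, and 67 and 76 in siHOXB-AS3 (log2 fold change -1.96 from siNT, SE 0.248, edgeR adjusted p 0.068). HOXA-AS3 was rare, with 38 and 18 counts in siNT, 12 and 12 in siHOXA-AS3, and 30 and 22 in siHOXB-AS3 (log2 fold change in siHOXA-AS3 -1.09, SE 0.403, adjusted p 0.71). All 10 colon epithelial markers were detected, with summed levels from 3852 to 5726 FPKM (fragments scaled to transcript length and library depth), although CDX2 stayed at or below 0.34 FPKM. Of these, CEACAM5 fell with siHOXB-AS3 (log2 fold change -1.63 from siNT, SE 0.154, edgeR adjusted p 0.049), where 0.0614% of all genes passed 0.05. In this comparison 8 of 10 markers lay below 0, and 2, KRT8 (0.20) and KRT18 (0.14), lay above. Of all genes 49.3% lay above 0. The part of the 10 markers in the member values was not tested. The 11 markers of leukocytes, endothelium, fibroblasts, hepatocytes and muscle had too few counts to test, and DCN, ALB and MYH6 were at 0 in every library. In bulk RNA, fewer cells of a type and less RNA per cell cannot be told apart.

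Members were among the most abundant mRNAs of these cells. Their median level was 162 FPKM, against 7.1 FPKM over the 13034 genes tested, and 56 of the 81 members tested averaged at least 100 FPKM. The highest row of complex V was ATP5F1E, the small epsilon subunit of ATP synthase, at 2453 FPKM. However, this row also holds PRELID3B and a read-through gene. In complex IV the highest was COX7C, a small structural subunit of cytochrome c oxidase, with 1452 and 1637 FPKM in siNT. NDUFB9, an accessory subunit of the complex I membrane arm, had 1422 and 1494 FPKM in siNT. UQCRH, the hinge protein of complex III, had 833 and 975 FPKM. In complex II the highest was SDHB, the iron-sulfur subunit of succinate dehydrogenase, with 206 and 198 FPKM.

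**Figure D1:**
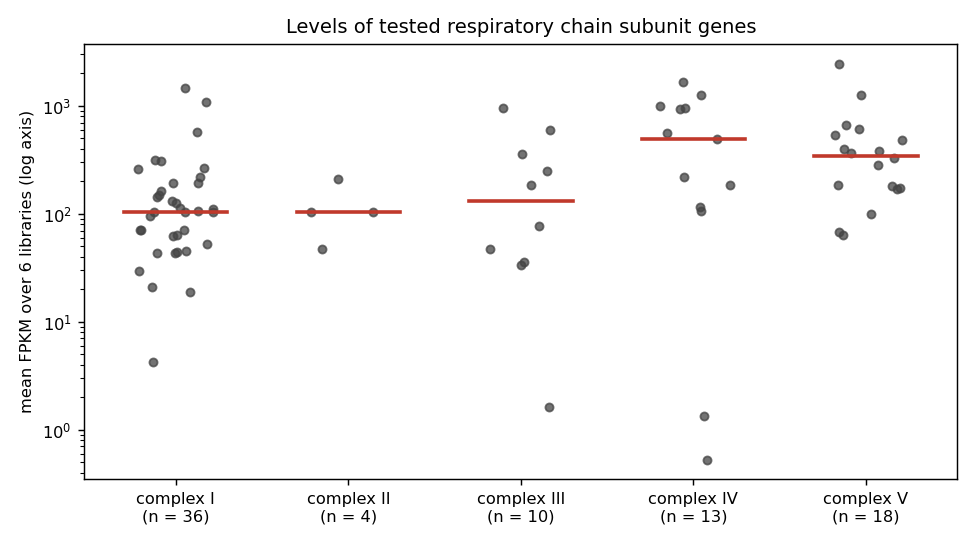
Mean FPKM over the 6 libraries on a log axis for the 81 members tested, grouped by complex, with a red bar at the median of each complex. Complex IV had the highest median at 495 FPKM, and its lowest points are NDUFA4L2 and COX6B2.

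Isoforms differed widely. COX6A2, COX7A1, COX7B2 and COX8C, the forms of complex IV subunits best known from heart, skeletal muscle or testis, had 0 counts in all libraries, while their partners COX6A1, COX7A2, COX7B and COX8A averaged between 219 and 1256 FPKM. A count of 0 allows up to 3 counts per library. COX6B2, the testis form of COX6B1, was listed at 0.38 to 0.65 FPKM, and COX6B1 at 405 to 671 FPKM. COX7A2L, which takes part in supercomplex assembly, ranged from 86.2 to 138 FPKM. ATP5MGL was the remaining member not tested, with 0 to 5.04 counts per library. UQCRHL, a near-identical copy of UQCRH, had 9.52 to 21 counts, and its share of reads is uncertain.

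The 3 genes for subunit c, whose identical mature protein forms the rotor ring, were all expressed. ATP5MC2 was the highest of them with 591 and 697 FPKM in siNT, followed by ATP5MC1 with 165 and 166 FPKM and ATP5MC3 with 82.9 and 102 FPKM. The order of the 3 genes was the same in all 6 libraries.

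The members share features that the name rule did not use. Their median transcript length was 806 nucleotides, against 2833 over all genes tested, and their median GC content was 49.9%, against 49.2%. A promoter window of 300 bases, from 250 before to 50 after the start, was matched for 70 members (RefSeq, GRCh38.p14, while the counts were made on hg19). The median GC content of these windows was 60.7%, against 58.7% over all 35116 windows of the reference, which were not limited to the genes tested. The motif GCGCNTGCG, bound by NRF1, was found on either strand in 32.9% of the 70 windows and in 7.5% of the 35116. The part of GC content or expression in such shares was not tested. CCGGAAG, bound by ETS factors such as GABP, was found in 27.1% and 10.3%, and AAGATGGC, bound by YY1, in 15.7% and 2.9%. In all, 40 of the 70 windows (57.1%) held at least 1 of the 3 motifs, where 18.3% of all windows did, and 12 (17.1%) held at least 2 kinds, where 2.2% did. None of the motifs contains another, a window counted once per motif, and a match describes letters only. No window was matched for NDUFB9, NDUFS5, NDUFC2, NDUFB5, SDHC, CYC1, UQCRB, UQCRHL, COX6C, COX7A1, ATP5F1B, ATP5MF, ATP5MC3, ATP5F1D and ATP5MGL.

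By complex, a window with at least 1 motif was found for 16 of 31 members in complex I, 3 of 3 in complex II, 6 of 7 in complex III, 5 of 15 in complex IV and 10 of 14 in complex V, against the same 18.3% of all windows. The windows of 5 members whose values are described below are printed 5′ to 3′ on the strand of the gene, with motif letters in capitals. The first 3 belong to members that were high in the siHOXB-AS3 libraries, and the last 2 to members that were low there.
ATP5MC1 (chr17:48892537-48892836, plus strand): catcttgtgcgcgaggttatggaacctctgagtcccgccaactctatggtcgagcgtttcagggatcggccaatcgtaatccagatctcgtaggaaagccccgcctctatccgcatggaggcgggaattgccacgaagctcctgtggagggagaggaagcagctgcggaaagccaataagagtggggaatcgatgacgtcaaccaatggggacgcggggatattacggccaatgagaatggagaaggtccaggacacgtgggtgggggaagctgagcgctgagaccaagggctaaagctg
UQCRFS1 (chr19:29213102-29213401, minus strand): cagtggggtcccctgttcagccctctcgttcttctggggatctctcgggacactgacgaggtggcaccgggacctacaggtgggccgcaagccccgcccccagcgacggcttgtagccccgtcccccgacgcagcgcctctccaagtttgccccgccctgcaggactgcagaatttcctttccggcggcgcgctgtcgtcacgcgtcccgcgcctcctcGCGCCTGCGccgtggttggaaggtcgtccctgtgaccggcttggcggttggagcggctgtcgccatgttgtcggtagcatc
ATP5MJ (chr14:103921480-103921779, minus strand): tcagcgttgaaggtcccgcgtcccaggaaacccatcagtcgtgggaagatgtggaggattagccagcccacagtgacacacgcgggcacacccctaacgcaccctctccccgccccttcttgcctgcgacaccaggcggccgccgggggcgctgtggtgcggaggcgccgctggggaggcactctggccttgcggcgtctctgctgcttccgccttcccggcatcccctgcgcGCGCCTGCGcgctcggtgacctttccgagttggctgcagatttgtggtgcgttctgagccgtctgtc
NDUFA7 (chr19:8321326-8321625, minus strand): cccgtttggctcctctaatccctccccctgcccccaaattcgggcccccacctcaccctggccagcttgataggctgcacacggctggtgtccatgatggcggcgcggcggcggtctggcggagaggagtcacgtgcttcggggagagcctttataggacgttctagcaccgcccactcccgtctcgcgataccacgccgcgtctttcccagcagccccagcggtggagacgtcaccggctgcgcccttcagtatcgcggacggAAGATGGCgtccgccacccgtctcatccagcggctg
SDHD (chr11:112086623-112086922, plus strand): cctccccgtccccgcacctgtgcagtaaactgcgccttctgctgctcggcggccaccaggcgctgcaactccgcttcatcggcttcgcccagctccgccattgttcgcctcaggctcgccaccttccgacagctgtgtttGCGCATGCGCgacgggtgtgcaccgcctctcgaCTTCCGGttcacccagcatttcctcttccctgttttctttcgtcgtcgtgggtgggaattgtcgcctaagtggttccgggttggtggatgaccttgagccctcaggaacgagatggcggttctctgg
In the SDHD window the NRF1 motif matched on both strands in overlapping positions, beginning 110 and 109 bases before the start, and the ETS motif began 77 bases before it. The NRF1 match of UQCRFS1 began 31 bases and that of ATP5MJ 17 bases before the start. In NDUFA7 the YY1 match began at base 15 of the transcript. The window of ATP5MC1 held none of these letters.

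The 2 siHOXA-AS3 libraries differed from each other more than the replicates of either other condition, and this limits each result that rests on them. Over the 81 members, the log2 values of replicate 2 minus replicate 1 had an SD of 0.64 in the siHOXA-AS3 pair, 0.23 in the siNT pair and 0.13 in the siHOXB-AS3 pair. In siHOXA-AS3 8 members were at least 2-fold apart. In the other conditions 0 were, where 2.52% of all genes were in siNT and 2.16% in siHOXB-AS3. The difference was not particular to members, since 13.4% of all genes and 9.88% of members were that far apart in siHOXA-AS3, and the SD over all genes was 0.73. The difference followed the GC content of the transcripts (Pearson r = -0.77, Spearman rho = -0.77, across 81 genes that share the same 2 libraries), and over all genes with a known GC content Pearson r was also -0.77. UQCRB, a small subunit of complex III with a GC content of 39.3%, had 16 FPKM in replicate 1 and 56.6 FPKM in replicate 2. UQCRC1, a core subunit of the same complex with 59.5% GC, had 62.4 and 29.4 FPKM. So 2 subunits of 1 complex moved in opposite directions between libraries of 1 condition. With a trend on GC content removed in each library the SD for siHOXA-AS3 was 0.41.

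**Figure D2:**
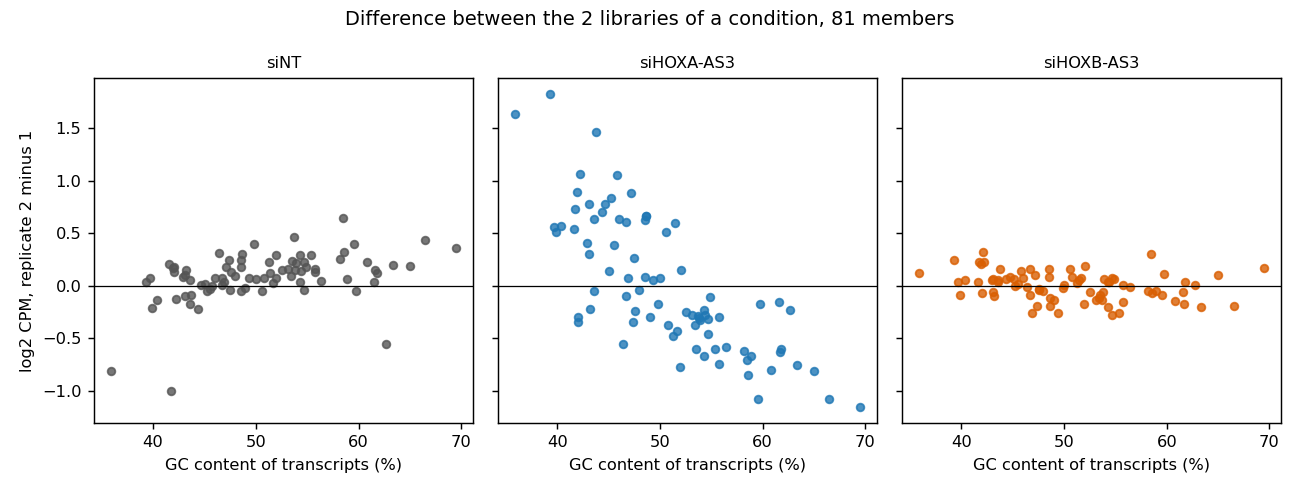
Log2 CPM of replicate 2 minus replicate 1 for 81 members against the GC content of their transcripts in percent, 1 panel per condition. The points slope downward in siHOXA-AS3 (Pearson r = -0.77), while the siHOXB-AS3 points stay close to 0 with an SD of 0.13.

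The first comparison asked whether HOXA-AS3 KD changed these genes. No member passed an adjusted p of 0.05 in siHOXA-AS3 against siNT (edgeR, 0 of 81, where 0% of all genes passed), and the smallest adjusted p was 0.84. At an unadjusted p under 0.05 there were 0 members, where 6.16% of all genes passed, and DESeq2 (0.317% of all genes called) and limma on log2(FPKM + 0.1) (0.029%) called 0 members. The median log2 fold change of members was -0.02, against 0.01 over all genes, with 35 members above 0 and 46 below, where 51.3% of all genes lay above 0. On the scale of TMM-normalised log2 CPM, both siHOXA-AS3 libraries lay above both siNT libraries in 4 members and below in 6, where 12.5% and 16.1% of all genes did so. With the GC trend removed 4.69% of all genes were called and 0 members.

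NDUFB6, an accessory subunit of complex I, had the highest log2 fold change (0.63, SE 0.379), but its 42.2 and 69.6 FPKM overlapped with 47.9 and 23.8 FPKM in siNT. UQCRHL (0.58, SE 0.400) came next with 2.17 and 2.34 FPKM against 1.46 and 1.41, and it rested on few counts. NDUFA5, which lies in the peripheral arm of complex I, was the third (0.49, SE 0.515) with 2.56 and 7.90 FPKM against 4.76 and 2.71, and it turned to -0.55 without siHOXA-AS3 replicate 2. At the low end, NDUFA1, a membrane arm subunit needed for complex I assembly, had 57.5 and 47.0 FPKM against 66.7 and 72.9 in siNT (log2 fold change -0.44, SE 0.200), so that the groups did not overlap. NDUFA4L2 (-0.35, SE 0.349), a paralog of NDUFA4 known as a hypoxia-induced gene, overlapped with siNT. NDUFS1, which carries iron-sulfur clusters and is the largest core subunit of complex I, had 22.5 and 27.6 FPKM against 30.5 and 32.4 (-0.32, SE 0.175) without overlap.

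Other core subunits of complex I gave no common direction with siHOXA-AS3. NDUFV2 (0.19), NDUFS8 (0.17) and NDUFS7 (0.03) lay above 0, while NDUFV1 (-0.003) and NDUFS3 (-0.13) lay below. SDHA, the flavoprotein of complex II, had 48.4 and 39.0 FPKM against 53.3 and 51.5 in siNT (-0.25, SE 0.170). CYC1 and UQCRFS1, cytochrome c1 and the Rieske protein of complex III, both stood at -0.13. For ATP5F1A and ATP5F1B, the alpha and beta subunits of the catalytic head of ATP synthase, the values were -0.09 and -0.16. The values depended on which siHOXA-AS3 library was kept. With 1 left out, siHOXA-AS3 was a single library, whose spread the model took from the other conditions. The member median was -0.10 without replicate 1 and 0.01 without replicate 2, against -0.05 and -0.01 over all genes. Without replicate 2, COX6B1 moved from -0.02 to 0.31 and COX8A from -0.02 to 0.35.

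With HOXB-AS3 KD, members leaned upward without passing the test. The median log2 fold change from siNT was 0.11, against -0.01 over all genes, and 62 of 81 members (76.5%) lay above 0, where 49.3% of all genes did. No member passed an adjusted p of 0.05 (edgeR, 0 of 81, where 0.0614% of all genes passed), and 0 passed an unadjusted p under 0.05, where 12.2% of all genes did. DESeq2 called 0 members and 1.87% of all genes, and limma on log2(FPKM + 0.1) called 0 of both, or 0% of all genes. Both siHOXB-AS3 libraries lay above both siNT libraries for 39 members (48.1%) and below for 10 (12.3%), where 30.9% of all genes were higher and 30.9% lower. The differences were small, since 80 of 81 members lay within 0.5 of 0 on the log2 scale and the median SE was 0.218.

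Per library, the median member stood at -0.05 and 0.05 from the siNT mean in siNT, at 0.006 and -0.10 in siHOXA-AS3, and at 0.12 and 0.10 in siHOXB-AS3, on the scale of TMM-normalised log2 CPM. On the log2(TPM + 0.1) scale the member median for siHOXB-AS3 against siNT was 0.02 with 49 of 81 members above 0, while the median of all genes was -0.09 with 39.5% above 0, so that the members stood 0.11 above all genes, as they did 0.12 above them in edgeR. With a trend on gene length removed in each library, the member median was 0.05 with 52 of 81 above 0, which was 0.06 above that of all genes, where 49.4% lay above 0. Members were short transcripts, and the part of length in the result was not tested further. Members took 3.595% and 3.798% of all TPM (a length-scaled share of transcripts) in siNT and 3.740% and 3.739% in siHOXB-AS3, so the groups overlapped in summed share. Without siNT replicate 1 the edgeR median was 0.06.

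**Figure D3:**
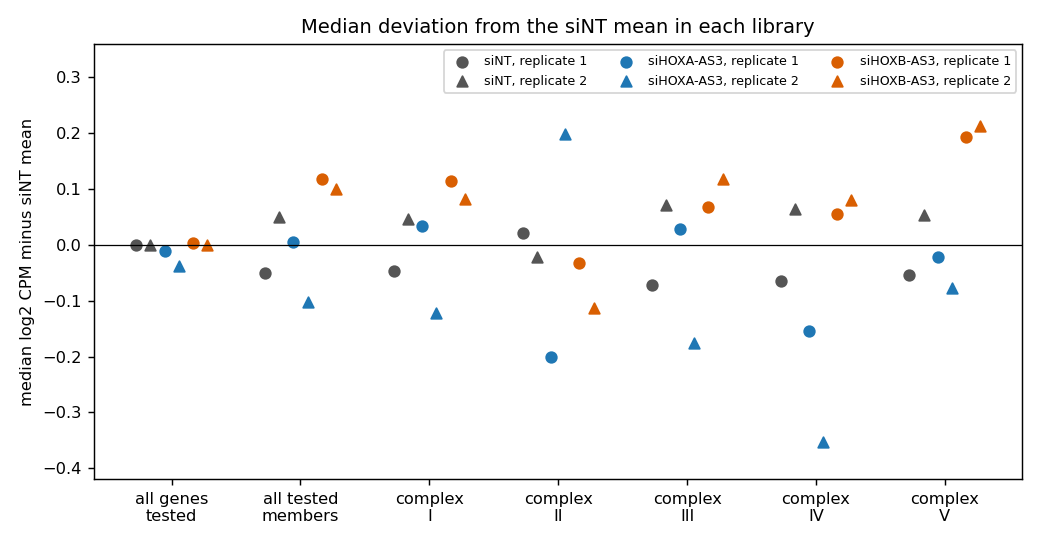
Median over genes of log2 CPM minus the siNT mean in each of the 6 libraries, for all genes tested, all tested members and each complex; circles are replicate 1 and triangles replicate 2. In complex V the siHOXB-AS3 libraries lie at 0.19 and 0.21, above both siNT libraries, while in complex II they lie below 0.

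In complex V, 16 of 18 members lay above 0 with siHOXB-AS3, the median was 0.20, and 13 (72.2%) had both siHOXB-AS3 libraries above both siNT libraries, where 30.9% of all genes did. Differences between the complexes were not tested. All 5 tested membrane subunits were among the 13, with log2 fold changes between 0.17 and 0.27. These are ATP5ME, ATP5MF, ATP5MG, ATP5MJ and ATP5MK, small subunits of the membrane part that take part in pairing of the synthase into dimers. In the catalytic head, ATP5F1B had 442 and 511 FPKM in siNT and 533 and 541 FPKM in siHOXB-AS3 (0.22, SE 0.191). ATP5F1A had 163 and 177 FPKM against 189 and 184 (0.18, SE 0.153).

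Within the c-ring, the 3 genes did not move alike. ATP5MC1 had 165 and 166 FPKM in siNT, 189.7 and 165 in siHOXA-AS3, and 230 and 197 in siHOXB-AS3. Its log2 fold change with siHOXB-AS3 was the highest of all members (0.41, SE 0.175), with the smallest adjusted p (0.41). ATP5MC3 had 82.9 and 102 FPKM against 112 and 110.3 (0.31, SE 0.218). ATP5MC2, by contrast, had 591 and 697 FPKM against 559 and 535 (-0.19, SE 0.222), so that the most abundant of the 3 genes lay below siNT. Whether these genes differ from each other was not tested. ATP5IF1, the inhibitor of reverse ATP hydrolysis by the synthase, overlapped with siNT (0.02, SE 0.201).

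In complex III the highest values were those of the 2 electron carriers. CYC1 had 169 and 183 FPKM in siNT and 211 and 214 FPKM in siHOXB-AS3 (0.32, SE 0.215, adjusted p 0.62). UQCRFS1 had 241 and 242 FPKM in siNT and 284 and 294 FPKM in siHOXB-AS3 (0.31, SE 0.142, adjusted p 0.46). In both genes the siHOXB-AS3 libraries lay above all other libraries. The 6 small subunits had a median of 0.04, with 3 above 0 and 3 below. On the log2 CPM scale UQCRH (0.23, SE 0.181) and UQCRB (0.16, SE 0.502) also had both siHOXB-AS3 libraries above siNT, while in FPKM both overlapped with it, at 1097 and 948 for UQCRH and 33.3 and 39.4 for UQCRB. Differences between these genes were not tested.

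In complex I, 28 of 36 members lay above 0 and the median was 0.10. All 7 core subunits, which hold the flavin, the iron-sulfur clusters and the quinone site, lay above 0. NDUFV1, which carries the flavin, had 39.1 and 45.4 FPKM in siNT and 48.2 and 43.3 in siHOXB-AS3, which overlapped (0.16, SE 0.277). NDUFV2, an iron-sulfur subunit beside it, had 293 and 282 FPKM in siNT and 306 and 296 in siHOXB-AS3, just above (0.12, SE 0.154). NDUFS8 had the lowest value of the 7 (0.02, SE 0.258), followed by NDUFS7 (0.05, SE 0.350), and both turned below 0 when counts were scaled by library totals (-0.03 and -0.0001) or the gene length trend was removed (-0.05 and -0.02). NDUFS8 also lay at -0.002 with a minimum mean of 1 FPKM and at -0.03 with limma. NDUFB3, an accessory subunit of the membrane arm, had 103 and 93.1 FPKM in siNT and 110.2 and 127 in siHOXB-AS3 (0.33, SE 0.333), with 64.9 and 136 FPKM in siHOXA-AS3.

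A smaller number of members lay below siNT. NDUFA7, an accessory subunit of complex I, had 98.0 and 116 FPKM in siNT, 153 and 101 in siHOXA-AS3, and 82.9 and 69.1 in siHOXB-AS3 (-0.41, SE 0.255, adjusted p 0.58). SDHD, a membrane anchor of complex II, had 123 and 104 FPKM in siNT and 82.5 and 85.7 in siHOXB-AS3 (-0.38, SE 0.246, adjusted p 0.60). Its partner anchor SDHC overlapped (0.02, SE 0.153), and SDHB was higher in both libraries (213 and 224 FPKM, 0.16, SE 0.218), so the subunits of complex II had no shared direction. SDHA had 44.8 and 47.0 FPKM, below both siNT libraries (-0.15, SE 0.170). NDUFA4L2 had the lowest value (-0.75, SE 0.354) on 57 and 23 counts in siNT and 26 and 23 counts in siHOXB-AS3, while NDUFA4 itself lay above siNT (0.23, SE 0.206).

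**Figure D4:**
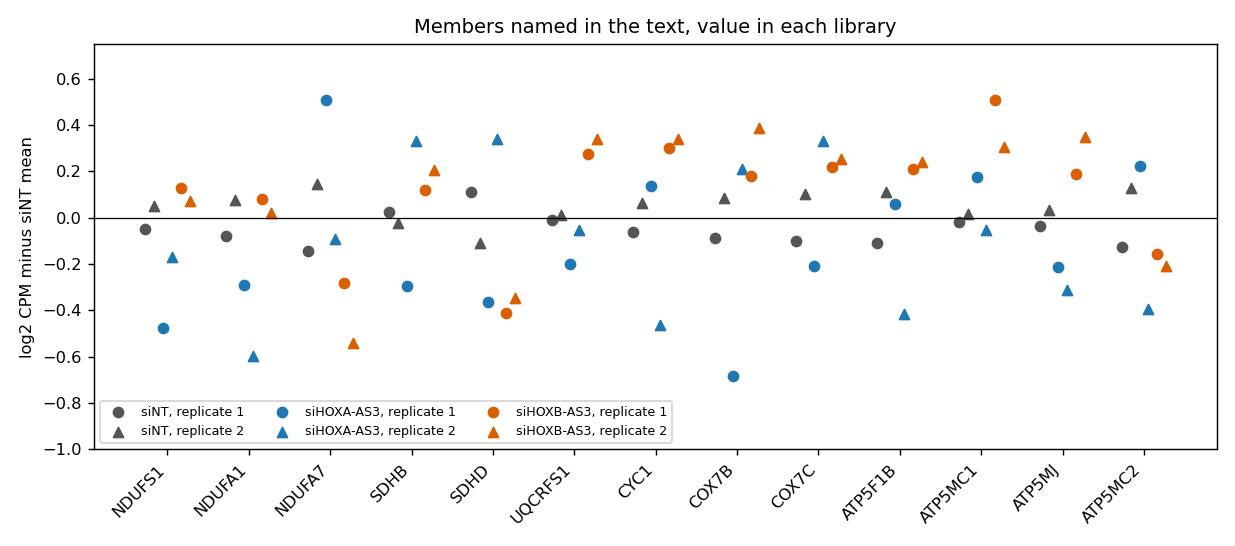
Log2 CPM minus the siNT mean in each library for 13 members, coloured by condition, with circles for replicate 1 and triangles for replicate 2. The siHOXB-AS3 points lie above both siNT points for CYC1, UQCRFS1, ATP5MC1 and ATP5MJ and below them for NDUFA7, SDHD and ATP5MC2.

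In complex IV the median was 0.13, with 10 of 13 tested members above 0. COX7B had 879 and 973 FPKM in siNT and 1022 and 1155 in siHOXB-AS3 (0.28, SE 0.283). COX7C had 1748 and 1753 FPKM in siHOXB-AS3, above its siNT values (0.23, SE 0.204). COX6B1 lay above siNT in both libraries (0.19, SE 0.243), while COX6A1 (0.01), COX8A (-0.05) and COX6B2 (0.18) overlapped. COX7A2 (0.13, SE 0.220) had both siHOXB-AS3 libraries just above siNT, and COX7A2L (0.06) overlapped.

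**Figure D5:**
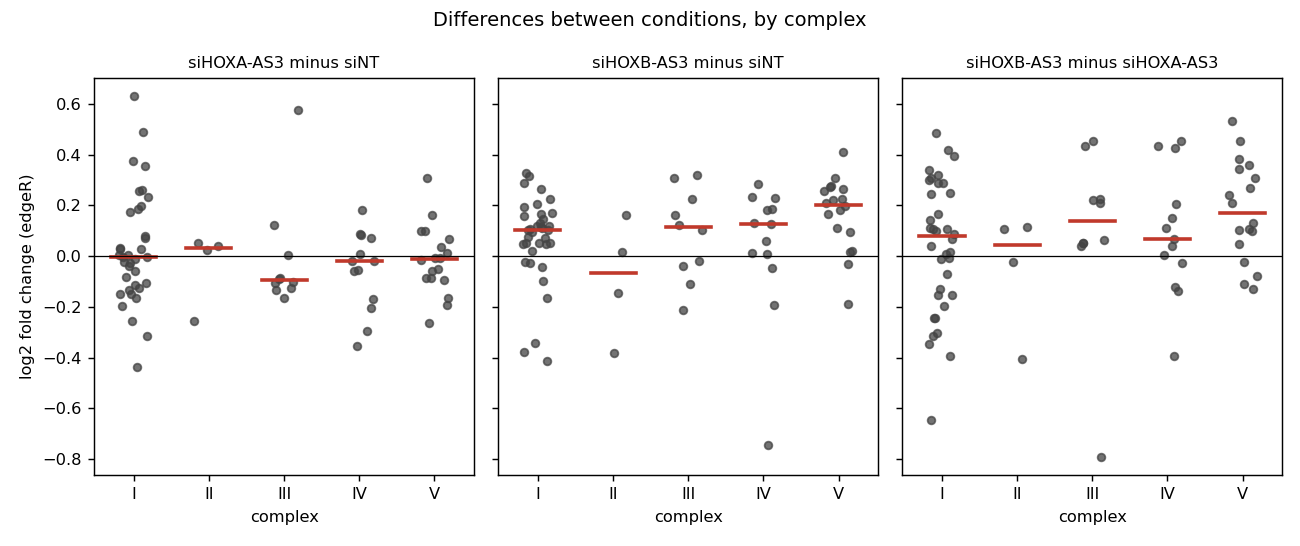
Log2 fold change from edgeR for each of the 81 members, by complex, in the 3 comparisons, with a red bar at the median of each complex. With siHOXB-AS3 against siNT the medians of complexes I, III, IV and V are 0.10, 0.11, 0.13 and 0.20 and that of complex II is -0.07.

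The siHOXA-AS3 libraries enter the shared estimate of spread, and without them more members passed in siHOXB-AS3 against siNT. A model of the siNT and siHOXB-AS3 libraries alone called 11 members (13.6%), where it called 23.3% of all genes. Of these 7 rose, among them ATP5MC1, ATP5MC3, COX7B, CYC1, NDUFB3 and UQCRFS1, and the 4 that fell were NDUFA7, NDUFB10, NDUFS6 and SDHD. With the GC trend removed from all 6 libraries, 4 members passed, where 14.5% of all genes did. Of these ATP5F1D, the delta subunit of the synthase, ATP5MC1 and CYC1 rose and SDHD fell. Leaving out siHOXA-AS3 replicate 1 or replicate 2 gave 12 members (8 higher and 4 lower) each, where 22.7% and 22.6% of all genes were called. In each of these models the share of members called was below the share of all genes. ATP5F1D, NDUFB10 and NDUFS6 were named after their values were seen.

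Between the 2 KDs, members again stood higher with siHOXB-AS3. The median log2 fold change of siHOXB-AS3 against siHOXA-AS3 was 0.10, against -0.01 over all genes, and 56 of 81 members (69.1%) lay above 0, where 48.9% of all genes did. No member passed an adjusted p of 0.05 (edgeR, 0 of 81, where 1.57% of all genes passed). At an unadjusted p under 0.05 there were 5 members (6.17%), where 18.4% of all genes passed. DESeq2 called 0 members and 4.36% of all genes, and limma on log2(FPKM + 0.1) called 0 members and 0.646% of all genes. The libraries did not overlap for 22 members that were higher and 7 that were lower, where 22.8% and 22.5% of all genes did so. On the log2(TPM + 0.1) scale 40 of 81 members lay above 0, where 43.1% of all genes did, and the member median was 0.07 above that of all genes. With the gene length trend removed 39 of 81 members and 48.9% of all genes lay above 0, and the medians differed by 0.009.

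ATP5MJ had the highest value between the KDs, with 157 and 146 FPKM in siHOXA-AS3 and 197 and 219 in siHOXB-AS3 (0.53, SE 0.162, adjusted p 0.15). Its siNT values of 175 and 184 FPKM lay between the KDs. NDUFA1 followed with 57.5 and 47.0 FPKM against 71.7 and 67.6 (0.49, SE 0.200), and COX7B was the third (0.46, SE 0.284), although its siHOXA-AS3 libraries, at 584 and 1098 FPKM, overlapped with siHOXB-AS3. At the low end, UQCRHL (-0.79, SE 0.402) had 21 and 16.3 counts in siHOXA-AS3 and 14.3 and 9.93 in siHOXB-AS3. NDUFA7 (-0.65, SE 0.255) had no overlap, and SDHD (-0.41, SE 0.246) did overlap, since its siHOXA-AS3 libraries had 87.5 and 143 FPKM. With the GC trend removed, 14 members passed (12 higher and 2 lower, 17.3%), where 27.1% of all genes did, and NDUFA7 and SDHD were the 2 lower ones. With siHOXA-AS3 reduced to a single library, the member median was 0.20 without replicate 1 and 0.11 without replicate 2. The medians over all genes were then 0.02 and -0.01.

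Summed over members, the levels of the complexes moved little. In complex V the sum was 8049 and 8792 FPKM in siNT, 8148 and 9110 in siHOXA-AS3, and 8905 and 9143 in siHOXB-AS3, which lay above both siNT sums. In TPM these sums overlapped, at 11782 and 12409 in siNT and 12323 and 12825 in siHOXB-AS3. In complex I it was 6719 and 7133 FPKM in siNT and 7213 and 6897 in siHOXB-AS3, which overlapped. In complex III the siHOXB-AS3 sums of 2793 and 2605 FPKM overlapped with 2315 and 2691 in siNT, and in complex IV 7666 and 7558 FPKM lay within the range of 6990 to 7832 in siNT. Complex II summed to 484 and 460 FPKM in siNT and to 452 and 449.7 in siHOXB-AS3, below both siNT sums. The siHOXA-AS3 sums were 7445 and 6547 FPKM in complex I and 405 and 544 in complex II. In complex III they were 2576 and 2203 FPKM, and in complex IV 7511 and 7241.

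Other genes of mitochondrial respiration were read from lists beside the members. Of 54 assembly factors tested, 0 passed an adjusted p of 0.05 in siHOXB-AS3 against siNT (edgeR; 4 at an unadjusted p under 0.05, DESeq2 0), 42 lay above 0 and the median was 0.16. These are 7.41% at the unadjusted p, where 12.2% of all genes passed, and 77.8% above 0, where 49.3% of all genes were. Of all genes 0.0614% passed the adjusted p in edgeR, and DESeq2 called 1.87%. COX17, the copper chaperone of complex IV, had 763 and 911 FPKM in siNT and 1185 and 1275 in siHOXB-AS3 (0.61, SE 0.173, adjusted p 0.22). NDUFAF4, an assembly factor of complex I, had 21.5 and 24.0 FPKM against 36.7 and 39.3 (0.79, SE 0.272), and UQCC1, of complex III, had 10.6 and 11.6 FPKM against 7.12 and 7.15 (-0.57, SE 0.183). For the TCA cycle and pyruvate dehydrogenase 16 genes were read, without citrate synthase (CS) and fumarase (FH), whose values were not examined. Of these 16, 8 lay above and 8 below 0, with a median of 0.05, where 49.3% of all genes lay above 0. In edgeR 0 of the 16 passed, where 0.0614% of all genes did, and 0 had an unadjusted p under 0.05, where 12.2% did. DESeq2 called 0 of the 16 and 1.87% of all genes, and limma called 0 of both. Among 13 regulators of mitochondrial biogenesis the median was 0.17 with 8 above 0. In edgeR 0 passed, and 2 had an unadjusted p under 0.05, where 12.2% of all genes did. DESeq2 called 1 of the 13 and 1.87% of all genes, and limma called 0 of both. MYC, a transcription factor with many nuclear targets, had 104.6 and 97.6 FPKM in siNT, 126 and 122 in siHOXA-AS3, and 191 and 226 in siHOXB-AS3 (1.09, SE 0.154, adjusted p 0.077), and its part in the member values was not tested. COX4I1 (0.11), NDUFAB1 (0.29) and CYCS (0.49), the subunits and the electron carrier that the name patterns leave out, all lay above 0, and COX4I2 was at 0 FPKM. In siHOXA-AS3 against siNT the assembly factors had a median of 0.0003 with 27 above 0 and 27 below, where 51.3% of all genes lay above 0. In edgeR 0 assembly factors and 0% of all genes passed an adjusted p of 0.05. At an unadjusted p under 0.05 there were 0 assembly factors, where 6.16% of all genes passed. DESeq2 called 0 assembly factors and 0.317% of all genes.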

How the data were processed

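Poly(A) RNA of HT-29 cells was sequenced from 6 libraries (Lexogen SENSE mRNA kit). The authors deposited RSEM expected counts, TPM and FPKM per gene, made on hg19 with RefSeq genes. For the aligner, the RSEM version and strand handling, the entry is: not given in the sources used here. Reads can be lost or shared at this step, and how reads shared by near-identical genes were divided affects such members. Expected counts were rounded and tested with edgeR 4.0.16 (R 4.3.3): filterByExpr with a minimum count of 10, TMM, a robust quasi-likelihood fit of all 6 libraries and Benjamini-Hochberg adjustment over 13034 genes at 0.05. Rows with an identifier but no symbol held 1.82% to 2.17% of counts and stayed in. DESeq2 1.42.0, limma 3.58.1 on log2(FPKM + 0.1), other scalings, filters, GC and length trends, a replicate block and each library left out were alternatives. FPKM was used for levels. The floor given for a count of 0 covers counting error only. Each SE comes from the edgeR fit, which also includes the estimated spread between libraries.

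Named members were any called by the edgeR fit, the 3 highest and 3 lowest log2 fold changes in each comparison, the most abundant member of each complex, the complex I core subunits, SDHA, SDHB, CYC1, UQCRFS1, ATP5F1A, ATP5F1B and the isoform groups. Members outside this rule were named after their values were seen. The members and lists were chosen with earlier results of these data known. The values of 1 member are not reported here.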

Additional observations from a re-analysis of the deposited data

How the results depend on the processing

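Leaving 1 library out assumes that its lone partner varies like the other groups. In siHOXA-AS3 against siNT, the member median then ranged from -0.104 to 0.047. In siHOXB-AS3 against siNT, 11 members were called with only the groups compared, where 23.3% of all genes were. With the GC trend removed 4 were called (14.5% of all genes), and with GC and the replicate block 1 (11.4%). With GC and only the groups compared, chosen after seeing the data, 22 were called, where 34.05% of all genes were. The median was 0.051 with the length trend removed and 0.022 on log2(TPM + 0.1), the latter chosen after seeing the data; the all-gene median was then -0.09. In siHOXB-AS3 against siHOXA-AS3 the calls were 14 with GC, 12 with GC and the block, 9 with GC and only the groups compared, and 0 to 39 with a library left out. Its median was -0.0019 with length, -0.00076 with TPM, where that of all genes was -0.07, and 0.10 to 0.20 with a library left out. The complex II sum with siHOXB-AS3 was -0.11 in TPM against -0.07 in FPKM (log2). Causes were not tested.

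Among 2217 values of 37 named members under alternatives, 153 changed sign, 79 of them with a library left out; in siHOXB-AS3 against siNT these include NDUFB6, at -0.09 without siNT replicate 2. Without siHOXA-AS3 replicate 2 or without replicate 1, some members took opposite signs. UQCRB stood at -1.05 and 0.76 in siHOXA-AS3 against siNT, and at 1.21 and -0.60 in siHOXB-AS3 against siHOXA-AS3. The share of all genes that turned likewise was not computed. Among members that the naming rule covers, siHOXA-AS3 values turned past the threshold for COX6B1 (-0.44 to 0.31), COX8A (-0.50 to 0.35), NDUFB3 (-0.59 to 0.46), NDUFS7 (-0.61 to 0.48) and SDHD (-0.36 to 0.33), and siHOXB-AS3 against siHOXA-AS3 did so for COX8A (-0.40 to 0.46) and NDUFS7 (-0.43 to 0.66). The replicate block called 0 members in each comparison, where it called 0%, 0% and 0.077% of all genes. It gave member medians of -0.05, 0.12 and 0.11. Deviations of same-numbered libraries correlated at -0.35, -0.14 and 0.15. These values cannot decide whether same-numbered samples were paired. With 2 libraries per condition they reflect the replicate differences, which over all genes correlated with GC content (Pearson r 0.42 in siNT, -0.77 in siHOXA-AS3 and -0.15 in siHOXB-AS3).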
